A study of Mus musculus with 23 samples.

Results

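Ankrd1, Ankrd2, Csrp3, Pdlim1, Xirp1, Enah, Flnc and Myoz2 are genes of the Z-disc and its actin links that are known from work on mechanical load in striated muscle. Their levels are described here across the 5 groups of a microarray study of mouse hindlimb muscle. The genes were chosen with earlier results of these data known, and were taken by exact gene symbol in the platform table. This gave 8 of 12393 genes and 14 Affymetrix probe sets. All animals were female C57BL/6J mice aged 77 days. In the flight experiment, gastrocnemius was taken after 11 days and 19 hours of spaceflight (spaceflight, n = 4) or after as long on the ground in an animal enclosure module (ground AEM, n = 4). In the calf experiment, muscle came from mice hung by the tail, hindlimbs unloaded, for 12 days and then let down for 3.5 hours (reloaded, n = 5), from mice suspended for 12 days (suspension, n = 5) and from untreated mice in ordinary housing (control, n = 5). Group names follow the sample titles, source names and series design. In the free-text descriptions, samples titled spaceflight carry the text of the ground AEM animals and the reverse; were that text correct, each flight difference would have the opposite sign.

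The Z-disc anchors the actin filaments of neighbouring sarcomeres and passes force along and across the fibre. Ankrd1 and Ankrd2 encode muscle ankyrin repeat proteins, which bind the elastic protein titin and are known to respond to stretch in striated muscle. Csrp3 (muscle LIM protein) and Pdlim1 (a PDZ and LIM protein that binds alpha-actinin) are LIM-domain proteins of the Z-disc and actin cytoskeleton. Xirp1 (Xin) binds actin and filamin C, Enah (Mena) promotes the elongation of actin filaments, and Flnc (filamin C) cross-links actin at the Z-disc and the membrane. Myoz2 (calsarcin-1) tethers the phosphatase calcineurin to alpha-actinin and is best known from slow and cardiac muscle.

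Values are log2 signals as deposited, so a difference of 1 is a doubling. A gene was called, and is said to have risen or fallen, at a Benjamini-Hochberg adjusted p under 0.05 in limma over 9133 tested genes. Each gene was read from the probe set with the highest mean. All 8 members passed the filter on low values, with signals above its threshold on every array in every group. Median log2 signal lay between 6.15 and 6.39 on the 23 arrays, and suspension replicate 8 had the lowest median correlation with the rest of its group (0.975, against at least 0.983 for each other array). The skeletal muscle markers Acta1, Ckm, Myh4, Tnnt3 and Mb lay between 12.82 and 13.92 on all 23 arrays. Whether replicates are different animals is not stated in the labels, and the p-values cover only the spread among these arrays, which may be partly technical.

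Reloading for 3.5 hours raised 7 of the 8 members above the suspended level. Called higher were 0.547% of all tested genes. The median log2 change of the members was 1.25, against -0.02 over all tested genes. The changes ran from 0.50 in Pdlim1 to 2.09 in Xirp1 among those called, and Myoz2 differed by 0.17 ± 0.11 (adjusted p = 0.656, 95% interval -0.07 to 0.41). In 7 members no reloaded array overlapped a suspension array, as was so in the upward direction for 0.832% of all tested genes. In a tissue sample, fewer cells of a type and less RNA per cell cannot be told apart.

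**Figure D1:**
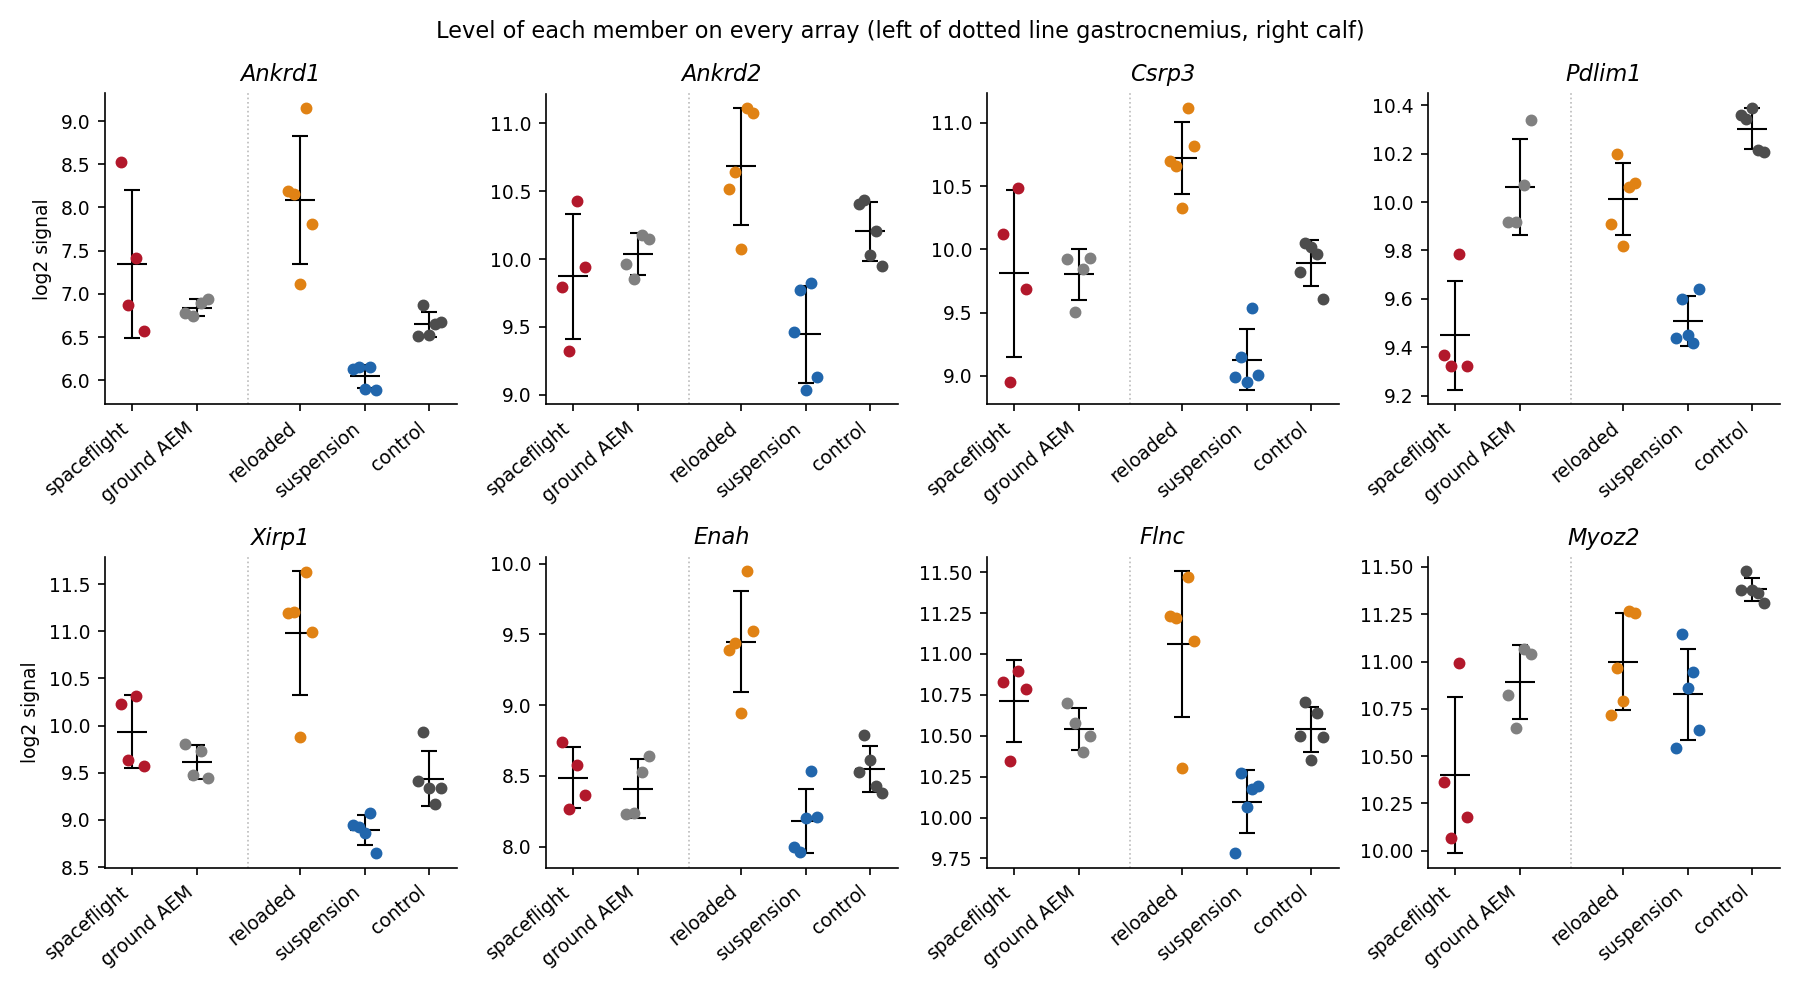
Log2 signal (vertical axis) of each member on every array, with groups on the horizontal axis, a point per array, and bars for the mean and SD (n = 4 in spaceflight and ground AEM, n = 5 in the calf groups). The reloaded points sit above the suspension points in all members except Myoz2, and Pdlim1 is lower in spaceflight than in ground AEM.

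Of the ankyrin repeat pair, Ankrd1 had log2 signals of 8.19, 8.15, 7.12, 9.16 and 7.81 in reloaded replicates 14, 15, 16, 18 and 33, against 6.13, 6.15, 5.90, 6.16 and 5.89 in suspension replicates 8, 9, 11, 25 and 30. Control replicates 1, 2, 19, 21 and 22 stood at 6.51, 6.87, 6.52, 6.65 and 6.68. The 3 calf groups of Ankrd1 did not overlap, with reloaded highest and suspension lowest. The rise on reloading was 2.04 ± 0.22 (SE), or 4.11-fold (adjusted p = 1.19e-05). This SE, like the others in calf muscle, rests on 1 spread per gene shared by the 15 calf arrays. The groups differed in spread, with an SD of 0.74 in reloaded, 0.14 in suspension and 0.15 in control arrays of Ankrd1. The SE may thus be too small for changes that involve the reloaded group.

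Ankrd2 stood at 10.51, 10.64, 10.07, 11.11 and 11.07 in the same reloaded replicates, against 9.46, 9.77, 9.04, 9.83 and 9.13 in suspension. Its control arrays read 10.41, 10.43, 10.03, 10.20 and 9.95. Reloaded and control arrays of Ankrd2 overlapped, while all suspension arrays lay below both. Ankrd2 rose on reloading by 1.24 ± 0.18, or 2.36-fold (adjusted p = 0.000489).

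Among the LIM proteins, Csrp3 had 10.70, 10.66, 10.33, 11.12 and 10.81 in reloaded muscle, against 8.99, 9.15, 8.95, 9.54 and 9.01 in suspended muscle. In control muscle Csrp3 read 9.82, 10.05, 10.02, 9.96 and 9.61. As in Ankrd1, the 3 groups were fully apart, and the rise of 1.60 ± 0.13 (3.02-fold, adjusted p = 6.54e-07) had the smallest adjusted p of the members.

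Pdlim1 followed another order, with 9.91, 10.20, 9.82, 10.06 and 10.08 in reloaded muscle, against 9.44, 9.60, 9.45, 9.42 and 9.64 in suspended muscle. Control arrays of Pdlim1 read 10.36, 10.34, 10.39, 10.22 and 10.21. Here control was highest and reloaded stood between, again without overlap of the 3 groups. Its rise on reloading was 0.50 ± 0.08, or 1.42-fold (adjusted p = 0.00143).

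Of the actin and filamin group, Xirp1 had 11.20, 11.20, 9.88, 11.63 and 10.99 in reloaded arrays, against 8.95, 8.92, 8.86, 9.07 and 8.64 in suspension arrays. Control arrays of Xirp1 read 9.41, 9.94, 9.34, 9.17 and 9.33. Reloaded replicate 16 (9.88) lay just under control replicate 2 (9.94), and the other 4 reloaded arrays were above every control array. Xirp1 had the largest rise of the members, 2.09 ± 0.21 or 4.26-fold (adjusted p = 5.83e-06).

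Enah had 9.39, 9.44, 8.94, 9.95 and 9.52 in reloaded muscle, against 8.00, 7.96, 8.20, 8.53 and 8.21 in suspended muscle. Enah read 8.52, 8.79, 8.61, 8.43 and 8.38 in control muscle. All reloaded arrays were above all others, and suspension replicate 25 (8.53) reached into the control range. Enah rose on reloading by 1.27 ± 0.14, or 2.41-fold (adjusted p = 1.30e-05).

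Flnc had 11.23, 11.22, 10.30, 11.47 and 11.08 in reloaded arrays, against 9.78, 10.27, 10.06, 10.17 and 10.19 in suspension arrays. Control arrays of Flnc stood at 10.50, 10.71, 10.35, 10.64 and 10.49. Reloaded replicate 16 (10.30) was below every control array and just above the highest suspension array (10.27), while the other 4 reloaded arrays were above all control arrays. Flnc rose on reloading by 0.96 ± 0.15, or 1.95-fold (adjusted p = 0.00147).

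Myoz2, the calcineurin-binding member, had 10.72, 10.97, 10.79, 11.27 and 11.26 in reloaded muscle, against 10.54, 11.15, 10.86, 10.94 and 10.64 in suspended muscle. Myoz2 read 11.38, 11.48, 11.38, 11.36 and 11.31 in control muscle. Both tail-suspended groups lay below every control array and overlapped each other.

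Promoter sequences were set beside these responses because most members moved together on reloading. RefSeq windows of GRCm38.p6, from 250 bases before to 50 bases after a gene's start, were found for 7 of the 8 members, the exception being Xirp1. They were searched on both strands for the MCAT box (CATTCC), the binding motif of TEAD factors, for the CArG box of SRF, for the MEF2 box, for the E-box (CANNTG) and for the TATA box (TATAAA). The 4 windows below come from the member with the largest rise that has a window (Ankrd1), the other member with an MCAT box (Flnc), the member with the smallest p on reloading (Csrp3) and the member that was not called on reloading (Myoz2). They are written 5′ to 3′ along the gene, and capitals mark an MCAT or MEF2 box.
Ankrd1 (chr19:36119795-36120094, minus strand): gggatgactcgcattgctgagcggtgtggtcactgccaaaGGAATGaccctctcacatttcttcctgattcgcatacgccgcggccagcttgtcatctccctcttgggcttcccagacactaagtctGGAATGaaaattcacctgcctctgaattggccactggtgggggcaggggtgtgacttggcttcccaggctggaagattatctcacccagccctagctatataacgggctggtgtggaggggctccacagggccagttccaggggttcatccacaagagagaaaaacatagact
Flnc (chr6:29432903-29433202, plus strand): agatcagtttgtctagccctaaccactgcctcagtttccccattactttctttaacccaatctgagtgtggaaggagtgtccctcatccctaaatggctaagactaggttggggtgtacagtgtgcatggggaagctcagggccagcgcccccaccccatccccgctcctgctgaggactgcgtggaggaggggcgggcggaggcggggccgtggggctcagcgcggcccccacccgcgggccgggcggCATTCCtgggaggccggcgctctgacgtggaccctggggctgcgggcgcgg
Csrp3 (chr7:48848002-48848301, minus strand): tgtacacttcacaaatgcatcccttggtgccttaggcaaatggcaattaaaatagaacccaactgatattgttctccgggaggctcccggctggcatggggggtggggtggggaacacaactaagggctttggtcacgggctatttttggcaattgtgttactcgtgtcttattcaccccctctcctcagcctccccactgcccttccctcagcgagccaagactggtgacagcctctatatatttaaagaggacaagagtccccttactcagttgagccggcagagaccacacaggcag
Myoz2 (chr3:123034938-123035237, minus strand): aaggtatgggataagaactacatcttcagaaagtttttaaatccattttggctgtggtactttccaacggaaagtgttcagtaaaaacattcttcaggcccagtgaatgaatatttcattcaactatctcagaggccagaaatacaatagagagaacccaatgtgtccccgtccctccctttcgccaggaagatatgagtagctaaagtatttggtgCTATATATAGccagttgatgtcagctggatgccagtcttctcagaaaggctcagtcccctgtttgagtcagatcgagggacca
The Ankrd1 window held 2 MCAT boxes, beginning at positions -210 and -123 from the start and read on the opposite strand. The Flnc window held 1, beginning at position -1, and the second Flnc window, which overlaps the first, holds the same letters. An MCAT box occurred in 14.7% of all 32851 windows. The MEF2 box of Myoz2, which overlaps no MCAT box, begins at position -33, and such a match occurred in 3.19% of windows. No member window held a CArG box, which 1.63% of windows did. E-boxes lay in the windows of Ankrd1, Ankrd2, Csrp3, Enah and Myoz2, against 72.3% of all windows, and a TATA box lay in that of Ankrd2, against 13.6%. These matches are letters in a window, and binding was not measured.

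Suspension for 12 days left all 8 members lower on average than in control muscle, and 3 of them fell: Pdlim1, Csrp3 and Myoz2. Called lower were 0.241% of all tested genes. The median log2 change of the members was -0.58, against 0.00 over all tested genes. Pdlim1 averaged 9.51 ± 0.10 in suspended and 10.30 ± 0.09 in control muscle (SD, n = 5 each), a fall of 1.73-fold (log2 change -0.79 ± 0.08, adjusted p = 2.47e-05). Csrp3 averaged 9.13 ± 0.24 in suspended and 9.89 ± 0.18 in control muscle, a fall of 1.7-fold (-0.76 ± 0.13, adjusted p = 0.00891). Myoz2 averaged 10.83 ± 0.24 in suspended and 11.38 ± 0.06 in control muscle (-0.56 ± 0.11, adjusted p = 0.0333).

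The other 5 members did not pass on suspension, although each had an unadjusted p under 0.05. Ankrd2 differed by -0.76 ± 0.18 (adjusted p = 0.0695), Ankrd1 by -0.60 ± 0.22, Xirp1 by -0.55 ± 0.21, Flnc by -0.44 ± 0.15 and Enah by -0.37 ± 0.14. In 7 members, all but Enah, no suspension array overlapped a control array, as was so in the downward direction for 1.34% of all tested genes. Without suspension replicates 8 and 9 only Pdlim1 stayed called, with Csrp3 and Myoz2 at adjusted p = 0.0581 each, and with all 23 arrays in 1 fit both also missed (Csrp3 0.0584, Myoz2 0.0743). The call of Myoz2 also ended without control replicate 1, 2, 19, 21 or 22 and without suspension replicate 8 or 30 (adjusted p 0.0665 to 0.0961). Ankrd2 passed without suspension replicate 25 (-0.85, adjusted p = 0.043). With the 2 groups fitted alone in limma, Ankrd1 passed (adjusted p = 0.00435), as did Ankrd2 (adjusted p = 0.0304). That fit leaves out the reloaded arrays, whose SD in Ankrd1 was 0.74, against 0.14 in suspension and 0.15 in control arrays.

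The change on suspension was called in 3 members, or in 5 with the 2 groups fitted alone. It is set here beside the change on reloading, called in 7 by either fit. Both comparisons share the suspension arrays, so their sizes are given side by side, and the test of one against the other is the comparison of reloaded with control muscle. Csrp3 fell by 0.76 on suspension and rose by 1.60 on reloading. Ankrd1 differed by -0.60 on suspension, without passing in the fit of all 15 calf arrays, and rose by 2.04 on reloading. The same 2 values, the first again without passing, were -0.55 and 2.09 in Xirp1 and -0.37 and 1.27 in Enah. These 4 members ended above the control level by the test that follows. For Ankrd2 they were -0.76 (not passed in the fit of all 15 calf arrays) and 1.24, and for Flnc -0.44 (not passed) and 0.96. Pdlim1 fell by 0.79 and rose by 0.50, while Myoz2 fell by 0.56 and differed by 0.17 on reloading.

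**Figure D2:**
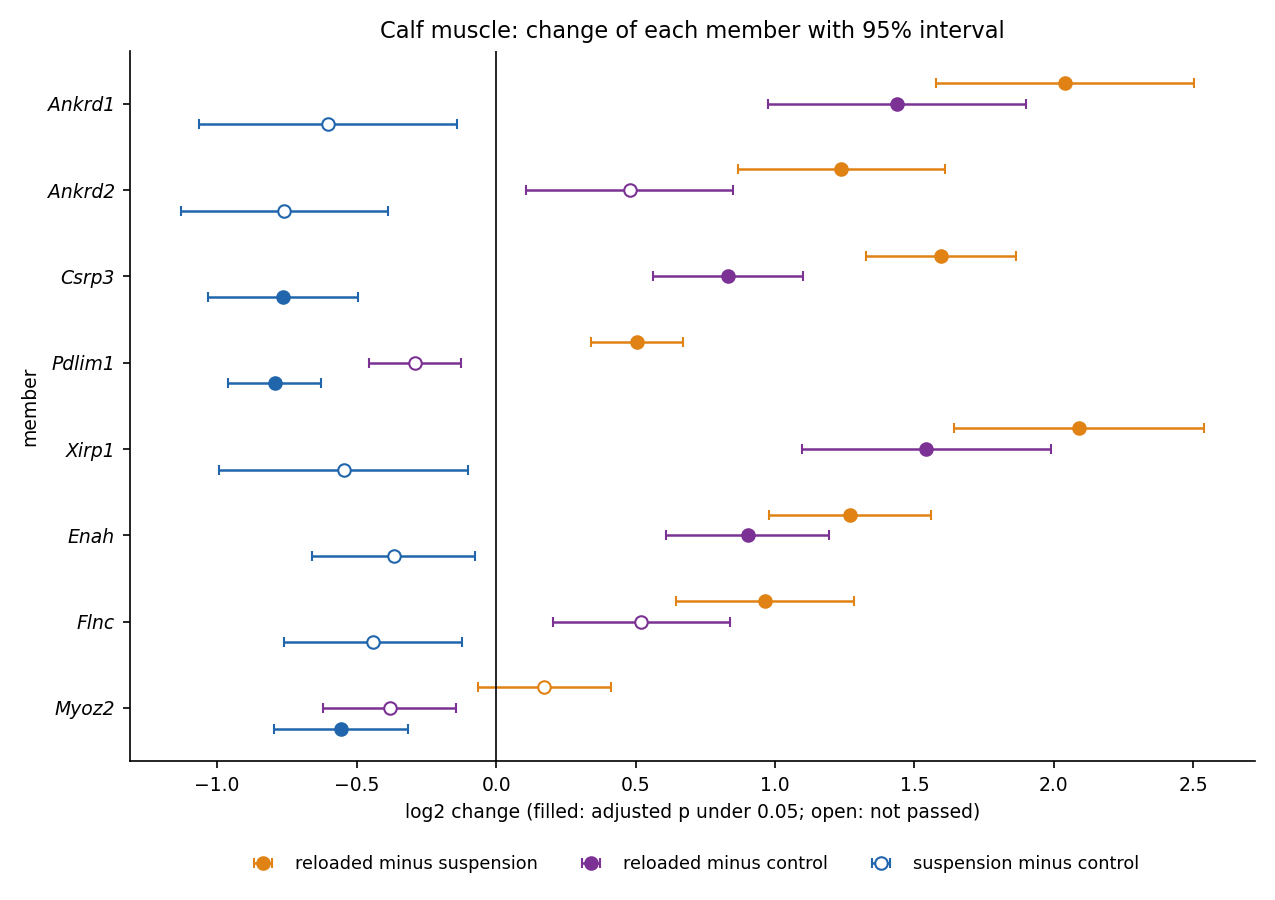
Log2 change of each member (horizontal axis, one row per gene on the vertical axis) between the calf groups, with 95% intervals from limma and filled points where adjusted p is under 0.05. Reloaded minus control is above 0 and called in Ankrd1, Csrp3, Xirp1 and Enah, and below 0 without passing in Pdlim1 and Myoz2.

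Against control, limma called 4 of 8 members higher in reloaded muscle and 0 lower (6 members above and 2 below control at an unadjusted p under 0.05). Called higher were 0.263% of all tested genes, and the median of the members was 0.68, against -0.02 over all tested genes. Xirp1 was 2.91-fold above control (log2 change 1.54 ± 0.21, adjusted p = 0.001) and Ankrd1 2.71-fold (1.44 ± 0.22, adjusted p = 0.00194). Enah was 1.87-fold above control (0.90 ± 0.14) and Csrp3 1.78-fold (0.83 ± 0.13), each with adjusted p = 0.00194. In Ankrd1, Csrp3 and Enah all reloaded arrays were above all control arrays, against 0.942% of all tested genes that did so.

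Flnc differed from control by 0.52 ± 0.15 (adjusted p = 0.243, 95% interval 0.20 to 0.84) and Ankrd2 by 0.48 ± 0.18 (adjusted p = 0.506). Without reloaded replicate 16, Flnc differed by 0.71 and passed (adjusted p = 0.000943), as it did with array weights (0.63, adjusted p = 0.0167). Pdlim1 differed from control by -0.29 ± 0.08 (adjusted p = 0.184, 95% interval -0.46 to -0.13) and Myoz2 by -0.38 ± 0.11 (adjusted p = 0.28, 95% interval -0.62 to -0.14). In Pdlim1 and Myoz2 all reloaded arrays were below all control arrays, against 1.7% of all tested genes that did so.

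Over the 15 calf arrays, centred on the control mean, Ankrd1 and Xirp1 had the most alike profiles of the 28 pairs of members, with a root mean square difference of 0.199 log2 units. Pdlim1 and Myoz2 came next, at 0.226. The paralogues Ankrd1 and Ankrd2 were 0.643 apart, and Xirp1 and Myoz2 were farthest apart, at 1.16. These distances describe the same 15 arrays that gave the changes above.

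The 5 reloaded arrays differed in how far the members had moved. In 7 of the 8 members reloaded replicate 18 was the top array of its group, and in 7 of 8 replicate 16 was the bottom one. Replicate 16 lay below the mean of the other 4 reloaded arrays in all 8 members, by a median of 0.70, while its median deviation over all tested genes was -0.04. Replicate 18 lay above the mean of the others in all 8, by a median of 0.52. The slow fibre markers (9 genes, mean log2) stood at 11.28 on replicate 16 and 11.62 on replicate 18, within a range of 10.94 to 11.62 over the reloaded arrays, and replicate 14 was lowest in them. Among control arrays, replicate 2 was highest in 7 of 8 members, with a median deviation of 0.25.

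**Figure D3:**
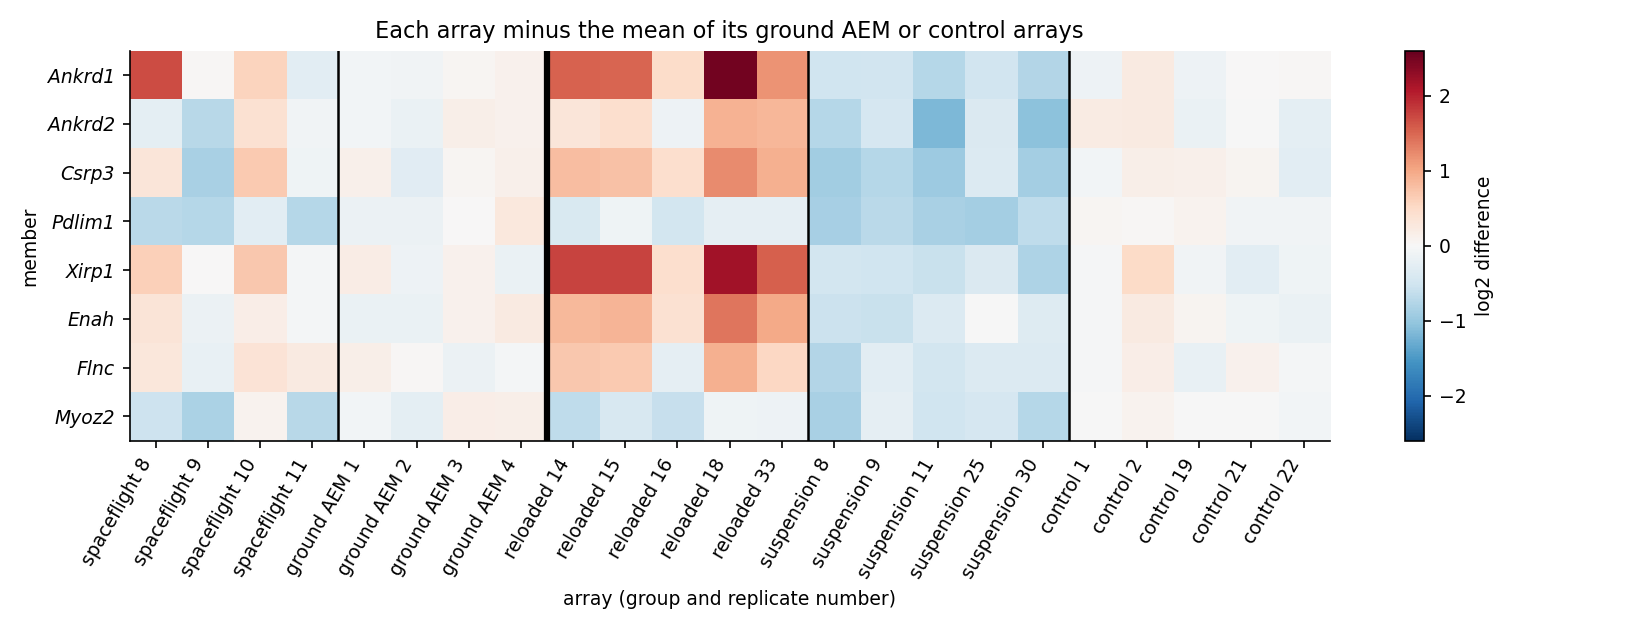
Colour gives the log2 difference of each array (horizontal axis, by group and replicate number) from the mean of the ground AEM arrays in the flight experiment or of the control arrays in the calf experiment, with 1 row per member. The reloaded columns are mostly red except in Pdlim1 and Myoz2, replicate 16 is the palest of them, and the spaceflight columns differ from one another.

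Pdlim1 fell in spaceflight, and limma called 0 of the other 7 members (1, Myoz2, at an unadjusted p under 0.05). Called lower were 2.46% of all tested genes. The median log2 change of the members was 0.04, against -0.01 over all tested genes. Pdlim1 stood at 9.37, 9.32, 9.78 and 9.32 in spaceflight replicates 8, 9, 10 and 11, against 9.92, 9.92, 10.07 and 10.34 in ground AEM replicates 1, 2, 3 and 4. The highest spaceflight array, replicate 10, was below the lowest ground AEM array. The fall was 1.53-fold (log2 change -0.61 ± 0.12, adjusted p = 0.0105). Its groups did not overlap, as was so in the downward direction for 6% of all tested genes.

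Myoz2 stood at 10.36, 10.07, 10.99 and 10.18 in spaceflight, against 10.82, 10.65, 11.06 and 11.04 in ground AEM. Spaceflight replicate 10 lay within the ground AEM range and the other 3 were below it. Myoz2 differed by -0.49 ± 0.17 (adjusted p = 0.12). Without replicate 10 it passed (-0.69, adjusted p = 0.00502).

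Ankrd1 stood at 8.53, 6.88, 7.41 and 6.57 in spaceflight, against 6.78, 6.75, 6.89 and 6.95 in ground AEM. Spaceflight replicate 8 was far above the rest, replicate 11 was below every ground array, and the SD was 0.86 in spaceflight and 0.09 in ground AEM. Ankrd1 differed by 0.51 ± 0.30 (adjusted p = 0.387), and by 0.11 without replicate 8.

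Csrp3 had 10.12, 8.95, 10.49 and 9.69 in spaceflight, against 9.93, 9.51, 9.85 and 9.93 in ground AEM. The spaceflight arrays spread to both sides of the ground arrays, and the difference was 0.01 ± 0.24 (adjusted p = 0.991, 95% interval -0.52 to 0.53).

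Xirp1 had 10.23, 9.64, 10.31 and 9.57 in spaceflight, against 9.81, 9.48, 9.74 and 9.45 in ground AEM. Enah had 8.74, 8.26, 8.58 and 8.36 in spaceflight, against 8.23, 8.23, 8.53 and 8.64 in ground AEM. In Xirp1 replicates 8 and 10 were above all ground arrays and the other 2 within their range, and in Enah replicate 8 alone was above them. Ankrd2 differed by -0.17 ± 0.18 and Xirp1 by 0.32 ± 0.16, with adjusted p of 0.656 and 0.292. Flnc differed by 0.17 ± 0.12 (95% interval -0.08 to 0.42) and Enah by 0.08 ± 0.12 (95% interval -0.18 to 0.34). In these 4 members the spaceflight and ground AEM arrays overlapped. Spaceflight replicate 10 was the highest of its group in 6 of 8 members and replicate 9 the lowest in 5. The slow fibre markers were also highest in replicate 10, at 11.19, against 10.58 to 10.92 in the other spaceflight arrays and 10.79 to 11.07 in ground AEM. Of the 9 slow fibre markers 1 fell in spaceflight, Myl2 (-0.42, adjusted p = 0.0236; list median 0.02). In spaceflight limma also called 4 of 5 adipocyte markers higher (median 1.05) and 3 of 8 fibroblast markers lower (median -0.18). It called 1 of 8 endothelial markers, Kdr, lower (-0.32, list median -0.07). Over all 9133 tested genes it called 290 higher and 225 lower in spaceflight. Of 6 tendon markers it called 0 (2 at an unadjusted p under 0.05), with all 6 below 0 and a median of -0.46. The part of these markers' cells and fibres in the flight results was not tested.

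**Figure D4:**
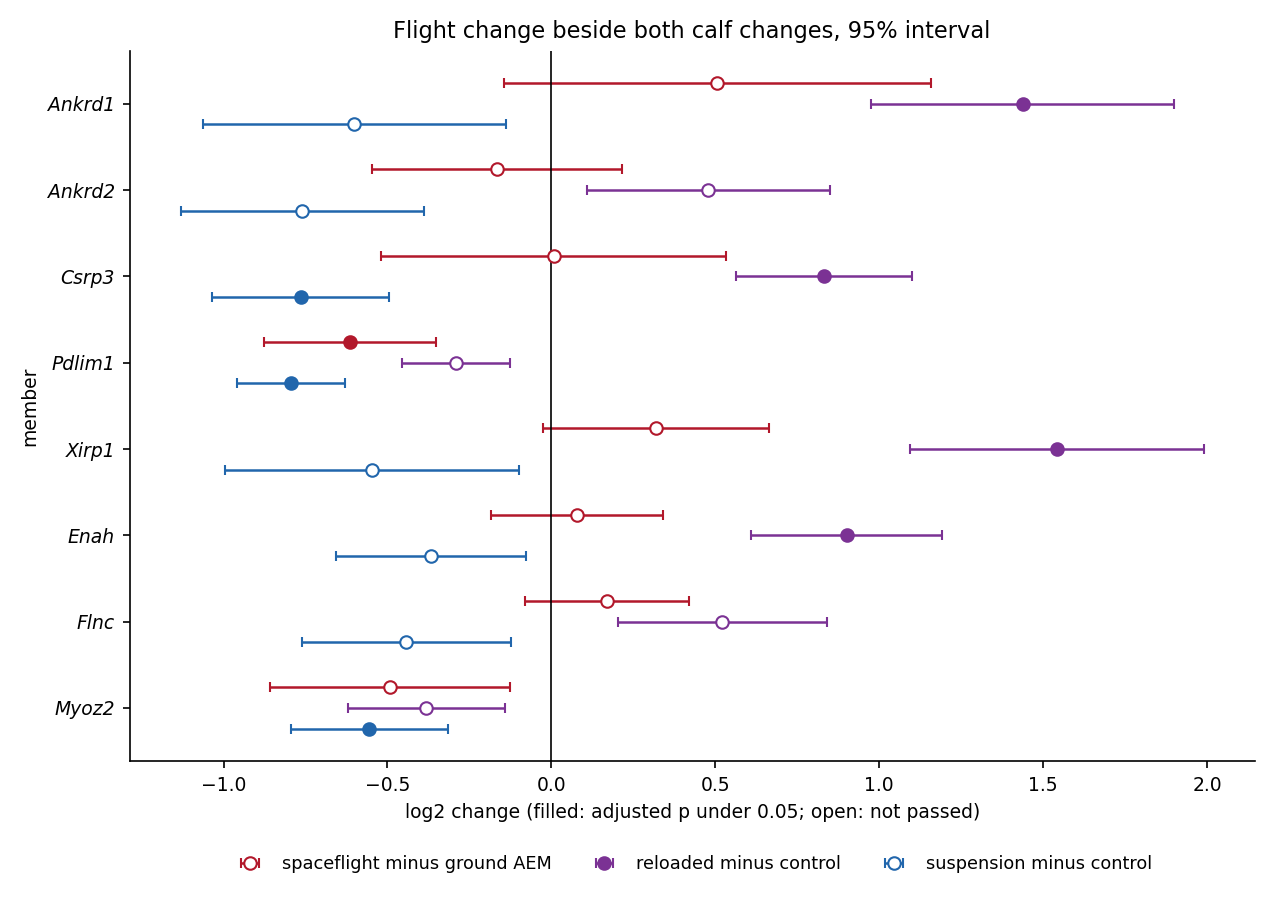
Log2 change of each member (horizontal axis, one row per gene on the vertical axis) in spaceflight against ground AEM, beside reloaded and suspension muscle each against control, with 95% intervals and filled points where adjusted p is under 0.05. Pdlim1 and Myoz2 lie below 0 in all 3, and the flight value of each of the 8 members lies between its 2 calf values.

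The flight change of each member was also tested directly against its calf changes, each taken within its own experiment. Against the suspension change, limma called 0 of 8 members (6 at an unadjusted p under 0.05), where 1.27% of all tested genes were called. The flight change was the higher of the 2 in all 8 members, with a median difference of 0.60 against -0.01 over all tested genes. The difference was 1.11 ± 0.40 in Ankrd1 (adjusted p = 0.216), 0.77 ± 0.28 in Csrp3 and 0.18 ± 0.14 in Pdlim1 (95% interval -0.11 to 0.47). Csrp3 passed without spaceflight replicate 9 (1.06, adjusted p = 0.014). Without spaceflight replicate 8 the difference was 0.71 in Ankrd1, and in Pdlim1 it was 0.07 without spaceflight replicate 10 and 0.27 without ground AEM replicate 4.

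Against the change from control to reloaded muscle, the flight change was lower in all 8 members and 2 were called, where 1.13% of all tested genes were called lower. The members' median difference was -0.73, against 0.01 over all tested genes. In Enah the difference was -0.82 ± 0.21 (adjusted p = 0.0239). In Xirp1 the difference was -1.22 ± 0.31 (adjusted p = 0.0274). The call of Enah ended without spaceflight replicate 9 or 11 or ground AEM replicate 3 or 4 (adjusted p 0.0508 to 0.0682). That of Xirp1 ended without spaceflight replicate 9 or 11, ground AEM replicate 1 or 3, reloaded replicate 14, 15 or 18, or control replicate 21 (adjusted p 0.0503 to 0.073). Without spaceflight replicate 8, Ankrd1 passed (-1.33, adjusted p = 0.0278), and without replicate 10 Csrp3 did (-1.05, adjusted p = 0.0225).

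Other probe sets of 3 members gave a second reading. The second probe set of Ankrd1 read 7.91, 8.00, 6.74, 8.45 and 7.88 in reloaded muscle, against 5.39, 5.99, 5.91, 6.05 and 5.89 in suspended muscle. It rose by 1.95 (adjusted p = 1.83e-05 over all probe sets tested), close to the 2.04 of the first. A further Enah probe set read 9.43, 9.97, 8.99, 10.39 and 9.74 in reloaded muscle, against 7.45, 7.73, 7.74, 8.21 and 7.70 in suspended muscle. Its rise of 1.94 (adjusted p = 1.72e-05) was larger than the 1.27 of the chosen one, and it was also called higher than control, by 1.56 (adjusted p = 0.000685). For this Enah probe set the flight change minus the change from control to reloaded muscle was -1.58 (limma adjusted p = 0.00187), against -0.82 for the chosen one.

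The remaining 4 probe sets, 2 of Enah and 2 of Pdlim1, were below the filter on low values. Of the Enah pair, 1 differed on reloading by 0.87 (adjusted p = 0.0278 without the filter) and the other by 0.27. The Pdlim1 pair stood between 3.66 and 4.92 on all arrays, and differed by 0.02 and 0.19 on reloading and by no more than 0.03 on suspension. With the mean of all 3 Pdlim1 probe sets, its change was -0.26 on suspension (adjusted p = 0.09) and 0.24 on reloading (adjusted p = 0.122), so neither was called. That mean includes the 2 probe sets below the filter, which makes any change smaller. The flight call of Pdlim1 held in all 17 alternatives, that mean among them.

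Other genes of the same structures and pathways were read in 4 lists, beside the 0.547% of all tested genes called higher on reloading. Members and lists alike were chosen with earlier results of these data known, so the contrast between them may partly reflect that choice. Of 18 tested Z-disc partner genes, such as alpha-actinins, Tcap and other PDZ and LIM proteins, 1 rose and 0 fell, with a median of 0.07. The riser was Fhl1, a LIM protein bound to the sarcomere (0.41 ± 0.07, adjusted p = 0.00339). Among 21 actin assembly and focal adhesion genes limma called 0 (3 at an unadjusted p under 0.05), with a median of 0.08, and among 13 costamere and filamin partner genes 0 (2 at an unadjusted p under 0.05), with a median of -0.01. Of 17 genes of the SRF, TEAD and calcineurin pathways 1 rose and 0 fell, with a median of 0.09. This was Rcan1, an inhibitor of calcineurin and a known calcineurin target gene (1.75 ± 0.17, adjusted p = 3.37e-06).

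**Figure D5:**
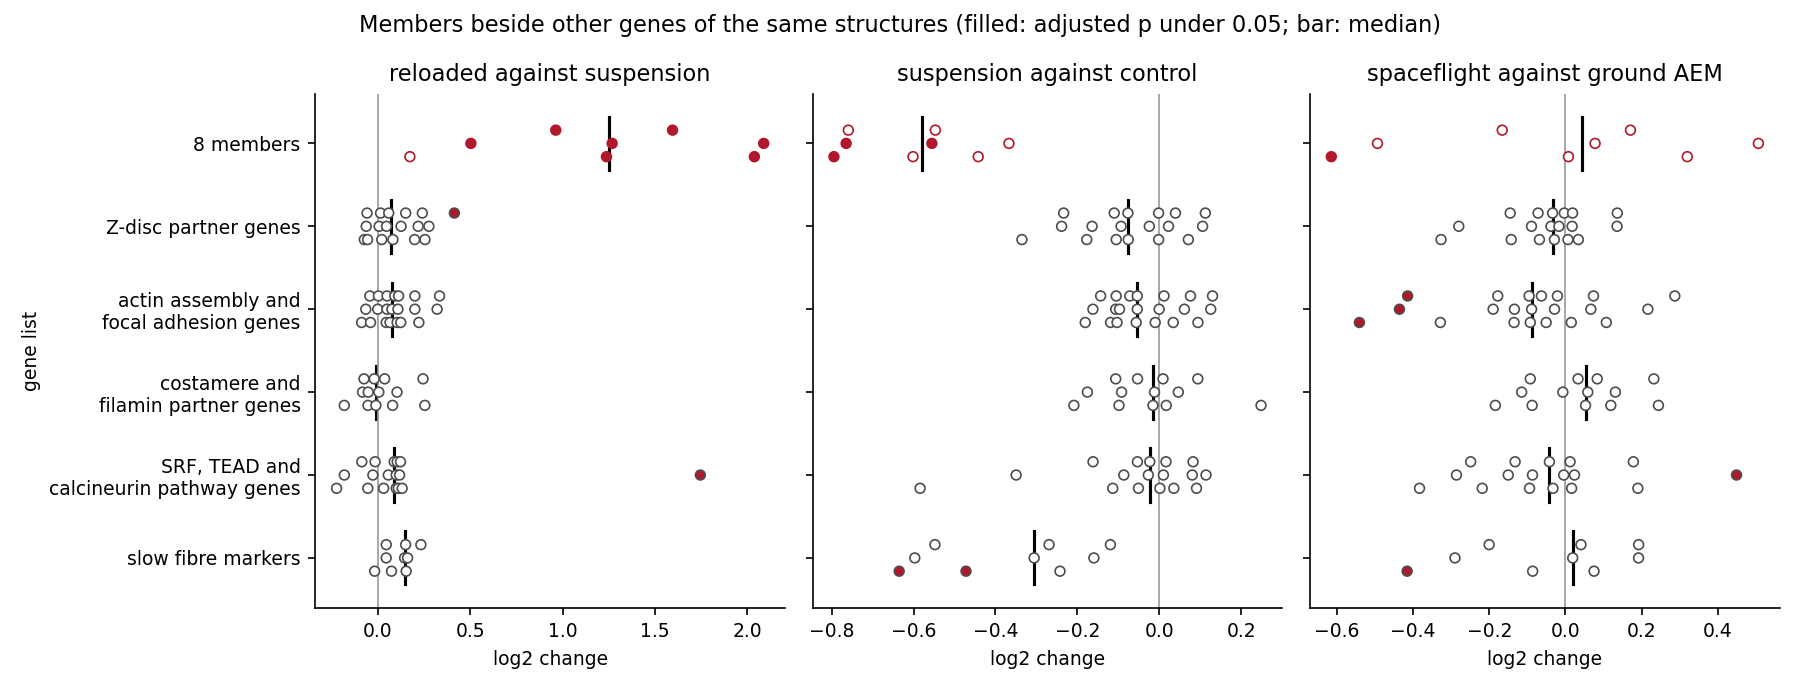
Log2 change (horizontal axis) of the 8 members and of the tested genes of 5 lists (vertical axis) in 3 comparisons, with a point per gene, filled where adjusted p is under 0.05, and a bar at the median. On reloading the members' median was 1.25 and the list medians were -0.01 to 0.15. Members and lists were chosen with earlier results of these data known, so this contrast is no independent test.

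On suspension limma called 0 genes in each of these 4 lists, with 3 of 18, 0 of 21, 1 of 13 and 3 of 17 at an unadjusted p under 0.05 and medians of -0.08, -0.05, -0.02 and -0.02. Rcan1 differed by -0.58 (adjusted p = 0.186). Against control, reloaded muscle had Rcan1 higher by 1.16 ± 0.17 (adjusted p = 0.00101), the 1 call in the 4 lists. In spaceflight 3 of the 21 actin assembly and focal adhesion genes fell and 0 rose: Lasp1, an actin-binding LIM and SH3 protein (-0.54 ± 0.08, adjusted p = 0.00208), Vasp, a relative of Enah (-0.44), and the integrin-linked kinase Ilk (-0.41). The SRF coactivator Mrtfa rose (0.45 ± 0.10, adjusted p = 0.0245), 1 of 17 in its list, beside 290 of all 9133 tested genes. Among Z-disc partners and costamere genes limma called 0 of 18 and 0 of 13 in spaceflight (2 and 1 at an unadjusted p under 0.05).

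Markers of slow fibres and of other cells were read beside the members. Of 9 slow fibre markers, 2 fell on suspension (Casq2 by 0.64 and Myl3 by 0.47). All 9 were below 0 on suspension, with a median of -0.31 and 7 at an unadjusted p under 0.05. On reloading limma called 0 (1 at an unadjusted p under 0.05), with a median of 0.15. In reloaded against control muscle all 9 were below 0 with 0 called (median -0.29, 5 at an unadjusted p under 0.05). Their mean log2 signal was 10.94 to 11.62 on reloaded arrays, 11.09 to 11.41 on suspension arrays and 11.55 to 11.72 on control arrays. Of 6 tendon markers Thbs4 rose on reloading (0.47, limma adjusted p = 0.00503) and Chad fell on suspension (-0.57, adjusted p = 0.0225). All 6 were above 0 on reloading (median 0.36, 4 at an unadjusted p under 0.05). On suspension all 6 were below 0 (median -0.37, 5 at an unadjusted p under 0.05). Of 8 fibroblast markers limma called 0 on reloading (median 0.28, 3 at an unadjusted p under 0.05) and 0 on suspension (median -0.21, 4 at an unadjusted p under 0.05). Of 4 Schwann cell markers Mbp rose on suspension (1.87, adjusted p = 0.0287). All 4 were above 0 on suspension (median 0.77, 4 at an unadjusted p under 0.05), and on reloading all 4 were below 0 with 0 called by limma (median -0.38, 3 at an unadjusted p under 0.05). Of 5 adipocyte markers limma called 0 on suspension (median 0.53, 3 at an unadjusted p under 0.05) and 0 on reloading (median -0.25, 3 at an unadjusted p under 0.05). Smooth muscle cells also express Flnc, Enah and Pdlim1, and of 6 tested smooth muscle markers limma called 0 in each of the 4 comparisons of groups (at an unadjusted p under 0.05, 2 on reloading and 0 on suspension). The part of these cells and fibres in the members' changes was not tested.

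For each member the most alike gene outside the set was taken by the smallest root mean square difference over the 15 calf arrays. The changes of these genes come from the same arrays that picked them, so their adjusted p-values are no independent evidence. It was Rcan1 for Ankrd1 (0.320 log2 units), for Xirp1 (0.314) and for Csrp3 (0.274), where the median gene was 1.00, 1.04 and 0.709 away. Ankrd2 was nearest to Lmcd1, a LIM protein (0.258), which rose by 0.93 on reloading (adjusted p = 0.00025). Enah was nearest to Lmod2, an actin-binding leiomodin (0.223), which rose by 1.02 (adjusted p = 0.00168). Flnc was nearest to the small heat shock protein Hspb1 (0.164), which rose by 0.80 (adjusted p = 0.000322). Pdlim1 was nearest to the calsequestrin Casq2 (0.205), and Myoz2 to the mitochondrial transhydrogenase Nnt (0.143), neither of which was called on reloading (0.23 and -0.04).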

How the data were processed

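One Affymetrix array was run per sample, on 23 samples. The deposited values are log2 expression per probe set, between 2.49 and 14.23. RMA and MAS5 are the tools named in the submitters' processing notes; neither the tool behind this table nor a version or batch is stated in the labels. No normalization was added.

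Of 22690 probe sets, 64 controls were left out. Platform symbols, compared with RefSeq names through Entrez identifiers, had 0 changes. Each gene was read from its probe set with the highest mean. Genes above 5.83 (the 40th percentile) on at least 4 arrays were tested, 9133 in all. Groups were compared with limma 3.58.1 in R 4.3.3 (lmFit, eBayes, two-sided), with the 8 gastrocnemius arrays fitted alone, the 15 calf arrays together, and differences between experiments over all 23. The number of arrays limits the precision, with a median SE of 0.09 in each comparison of groups. Other probe sets were read from a fit of the same design over 14851 probe sets. The 4 below the filter were read from a fit over all 22626 probe sets without the filter. The scripts were tested on simulated data.

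Members and gene lists were chosen with earlier results of these data known. Named genes are all members, up to 4 called genes per pathway list, and the nearest gene of each member called in a calf comparison. The alternatives changed the filter, the probe set rule, scaling, variance model, weights, arrays in the fit and single arrays.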

Additional observations from a re-analysis of the deposited data

Results flagged for a closer look

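Of 70 sets of arrays (14 probe sets in 5 groups), 5 held an array far from the others by Dixon's criterion, and chance marks about 1 in 20 such sets. In the second probe set of Ankrd1, suspension replicate 8 stood at 5.39, where the next array was at 5.89. In the chosen probe set of Pdlim1, spaceflight replicate 10 stood at 9.78, where the other 3 lay between 9.32 and 9.37. Without it the flight fall of Pdlim1 was -0.73. The other 3 were in probe sets below the filter on low values: Pdlim1 in reloaded replicate 33 (4.06), Enah in spaceflight replicate 8 (4.71) and Enah in suspension replicate 30 (5.21).

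In Xirp1 and Enah the flight change differed from the change from control to reloaded muscle by a test of the difference itself. That difference was -1.22 in Xirp1 and -0.82 in Enah, with adjusted p of 0.0274 and 0.0239 in limma. Over 27 alternatives the call was lost in 9 for Xirp1 and in 4 for Enah. Against the suspension change neither was called (adjusted p = 0.214 and 0.38 in limma). The experiments also differ in the muscle sampled, in housing and in the spread of signals on an array, and these cannot be told apart from the treatment.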

How the results depend on the processing

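No paired analysis was possible because the groups compared within an experiment share no replicate numbers; only groups of different experiments do. The 7 calls on reloading kept their side of the threshold in all 21 alternatives, except Pdlim1 with the mean of its probe sets, and the 4 calls against control did so in all 21. The medians of the members moved by less than the spread between arrays in every alternative. Calls on suspension, 3 in the main setting, were 1 with the mean of probe sets, 1 with all 23 arrays in 1 fit, 1 without suspension replicates 8 and 9 together, 5 with the 2 groups alone, and 2 to 4 when single arrays were left out. In flight they were 1 to 2 over single arrays (2 without spaceflight replicate 10). For the flight minus suspension difference, 0 calls became 3 with the flight groups exchanged and 0 to 1 over single arrays. For the flight minus reloaded difference, 2 calls became 1 with trend and robust estimation (Xirp1 lost, adjusted p = 0.0874), 5 with the flight groups exchanged and 0 to 3 over single arrays. That exchange turned Pdlim1 to 0.90 and Myoz2 to 0.87. Calls over all genes differed by more than 1.5 times in these cases: flight 515, but 945 per probe set and 283 to 491 over single arrays; suspension 34, but 56 per probe set, 17 with means, 7 without replicates 8 and 9 and 15 to 47 over single arrays; reloaded against suspension 53, but 86 per probe set; reloaded against control 29, but 50 per probe set, 88 with array weights, 53 with the 2 groups alone and 61 without suspension replicates 8 and 9; flight minus suspension 116, but 234 per probe set and 529 exchanged; flight minus reloaded 250, but 486 per probe set and 436 with array weights. The counts per probe set are of 14851 tested probe sets and the main counts of 9133 tested genes, so those pairs differ in unit. Ankrd1 in suspension (5.89 to 6.16) lay close to the filter's 5.83.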

Other observations

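Rcan1, Lasp1 and Mrtfa, genes of the pathway lists, differed between the flight and calf changes by a test of the difference itself. For Rcan1, the flight change (-0.38, adjusted p = 0.0601) was lower than its change from control to reloaded muscle (difference -1.55 ± 0.23, limma adjusted p = 0.000148). For Lasp1, the flight change was lower than the suspension change (difference -0.49 ± 0.11, adjusted p = 0.0172) and lower than the change from control to reloaded muscle (difference -0.60 ± 0.11, adjusted p = 0.00178). For Mrtfa, the flight change was higher than the change from control to reloaded muscle (difference 0.76 ± 0.17, adjusted p = 0.0129). By the same test Lims1 (-0.47, adjusted p = 0.0417) and Ilk (-0.45, adjusted p = 0.0309), partners at focal adhesions, were also lower in flight relative to that change.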
